A study of Mus musculus with 12 samples.

Results

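The MS4A membrane proteins described here are 8 mouse genes, Ms4a4a, Ms4a4b, Ms4a4c, Ms4a6b, Ms4a6c, Ms4a6d, Ms4a7 and Ms4a8a, taken by symbol from a table of 46072 Ensembl genes. All 8 were present in the table and all 8 had an adjusted p in each of 3 comparisons. The study used C57BL/6J mice, 6 to 8 weeks old and with no genetic change in any group, grew 3 cell types from their marrow and sequenced mRNA from 4 cultures of each. Bone marrow macrophages were kept in M-CSF (30 ng/ml) after 5 days of expansion in M-CSF at 100.0 ng/ml. Osteoclasts, the large multinucleated cells that resorb bone, had the same expansion and then M-CSF (30 ng/ml) with RANKL (50 ng/ml). Immature dendritic cells were grown without that expansion, in GM-CSF (20 ng/ml). Differentiation took 8 to 10 days in all 3 groups, and mononucleated cells were stripped from the osteoclast cultures with Accutase. Each of the 4 experiments used a separate mouse that supplied all 3 cell types, but the table does not tie its means to individual mice.

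MS4A proteins cross the membrane 4 times and sit side by side in 1 gene cluster, and the best known of them, MS4A1, is the CD20 antigen of B cells. MS4A2 is the beta chain of the high-affinity IgE receptor of mast cells and basophils, and several other members have been described as partners of immune receptors in macrophages and T cells. In humans, variants near MS4A4A and MS4A6A have been linked to soluble TREM2 levels and to Alzheimer's disease risk, and MS4A7 is widely used as a macrophage marker.

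On the GRCm38 build, 19 Ms4a genes occupied 678.6 kb of chromosome 19, from 10962293 to 11640851, and 7 of the 8 members lay in the 283.8 kb between Ms4a7 and Ms4a6d. Ms4a7 (ENSMUSG00000024672) spans 11321039 to 11336146 on the minus strand. The Ms4a4 genes follow on the plus strand, with Ms4a4a (ENSMUSG00000101389) at 11375523 to 11392790, Ms4a4c (ENSMUSG00000024675) at 11404770 to 11427246 and Ms4a4b (ENSMUSG00000056290) at 11443553 to 11467055. Ms4a6c (ENSMUSG00000079419) starts 2.3 kb further on, at 11469366 to 11482192, and Ms4a6b (ENSMUSG00000024677) lies at 11516512 to 11531256, both on the plus strand. Ms4a6d (ENSMUSG00000024679) is on the minus strand at 11586604 to 11604849. Ms4a8a (ENSMUSG00000024730) stands apart, at 11067471 to 11081102 on the minus strand, 239.9 kb before Ms4a7. All 8 are protein-coding genes.

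Promoter sequences, from 250 bases before to 50 after the start, were found for 7 of the 8 members in RefSeq on GRCm38.p6, and Ms4a6d had no entry there. Among the 21 pairs of these promoters, those of Ms4a4b and Ms4a4c were 76.7% identical over 300 bases and those of Ms4a6b and Ms4a6c 64.0%, while the other 19 pairs ranged from 51.0% to 57.7%. These 4 sequences are shown because they were the most alike of the member promoters. Whether promoter likeness goes with expression was not tested. The Ms4a4a promoter was 53.0% and 55.0% identical to those of Ms4a4b and Ms4a4c. All of these Ms4a4 genes were called lower in osteoclasts than in both other cell types. None was called in dendritic cells against macrophages, with log2 fold changes of -0.75 for Ms4a4a, -0.18 for Ms4a4b and 1.19 for Ms4a4c. Ms4a7 had the same calls as Ms4a6b and Ms4a6c in all 3 comparisons, with promoters 55.3% and 52.0% identical to theirs. Ms4a7 has 2 start sites in the table, and the one at the annotated gene start was used for these pairs. Capitals mark runs of at least 12 bases shared within the pair, which cover 131 bases for Ms4a4b and Ms4a4c and 86 bases for Ms4a6b and Ms4a6c. The windows are chr19:11443308-11443607 for Ms4a4b, chr19:11407411-11407710 for Ms4a4c, chr19:11518309-11518608 for Ms4a6b and chr19:11469118-11469417 for Ms4a6c, all on the plus strand. Those of Ms4a4c and Ms4a6b follow RefSeq starts and begin beyond the gene starts given above, which are from GENCODE.
Ms4a4b: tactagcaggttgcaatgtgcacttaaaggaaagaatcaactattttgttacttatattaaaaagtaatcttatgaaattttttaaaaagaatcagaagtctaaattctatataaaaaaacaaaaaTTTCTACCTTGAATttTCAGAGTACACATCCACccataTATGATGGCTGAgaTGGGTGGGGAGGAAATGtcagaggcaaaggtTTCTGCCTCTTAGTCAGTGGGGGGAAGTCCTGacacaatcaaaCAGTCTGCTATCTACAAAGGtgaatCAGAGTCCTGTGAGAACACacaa
Ms4a4c: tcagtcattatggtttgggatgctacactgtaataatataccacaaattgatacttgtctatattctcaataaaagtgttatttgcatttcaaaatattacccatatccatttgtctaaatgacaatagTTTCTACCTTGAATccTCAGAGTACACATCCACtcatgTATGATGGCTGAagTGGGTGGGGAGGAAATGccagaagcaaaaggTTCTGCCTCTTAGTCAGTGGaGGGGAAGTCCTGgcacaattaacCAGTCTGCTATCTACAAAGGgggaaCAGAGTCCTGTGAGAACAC
Ms4a6b: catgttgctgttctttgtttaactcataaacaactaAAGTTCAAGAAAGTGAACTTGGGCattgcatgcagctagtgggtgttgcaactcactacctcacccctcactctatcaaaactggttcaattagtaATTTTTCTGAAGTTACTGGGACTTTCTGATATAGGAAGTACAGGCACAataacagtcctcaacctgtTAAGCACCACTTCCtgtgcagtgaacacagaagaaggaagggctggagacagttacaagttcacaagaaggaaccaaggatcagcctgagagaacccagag
Ms4a6c: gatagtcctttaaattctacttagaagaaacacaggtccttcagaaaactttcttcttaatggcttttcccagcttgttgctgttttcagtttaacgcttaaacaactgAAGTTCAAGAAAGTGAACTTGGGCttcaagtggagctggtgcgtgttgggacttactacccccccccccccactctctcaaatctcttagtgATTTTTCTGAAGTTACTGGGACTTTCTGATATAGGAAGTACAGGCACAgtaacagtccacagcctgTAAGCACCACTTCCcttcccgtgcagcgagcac
The longest shared run was 48 bases between Ms4a6b and Ms4a6c and 20 bases between Ms4a4b and Ms4a4c, against 7 to 9 bases in the other 19 pairs. Motifs were searched on both strands. Among the 8 windows of the 7 members, both of Ms4a7 included, none held GAGGAAGT (PU.1), TTGCNNAA (C/EBP), the interferon-stimulated response element, TTCNNNGAA (STAT) or TCANNTGA (MiT/TFE factors), which occur in 3.2%, 10.8%, 3.44%, 8.3% and 8.39% of all 32851 promoter windows. TGAGTCA (AP-1), present in 5.2% of all windows, occurred in 1 member window, that of Ms4a8a, at position -244 from the start. Overlap between these motifs was not examined.

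The summed level of the 8 members was highest in macrophages. In the authors' deposited table their means added up to 20447.6 normalised reads in macrophages, 8372.8 in osteoclasts and 2588.5 in dendritic cells. A normalised read here is a read count divided by its library's size factor, and each mean covers 4 libraries. With each mean divided by the length of the longest transcript, Ms4a7 made up 47.3% of the members' sum in macrophages and 45.3% in osteoclasts, but 2.36% in dendritic cells, where Ms4a6d made up 58.5% and Ms4a8a 22.4%. Bulk RNA cannot tell fewer cells that express a gene from less of its RNA per cell. Whole reads per library could be recovered from the authors' means where a mean was low enough that only 1 combination of whole reads gave it. The libraries of each cell type are lettered a to d by size factor, and the letters tie no library to a mouse or to a library of another cell type.

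**Figure D1:**
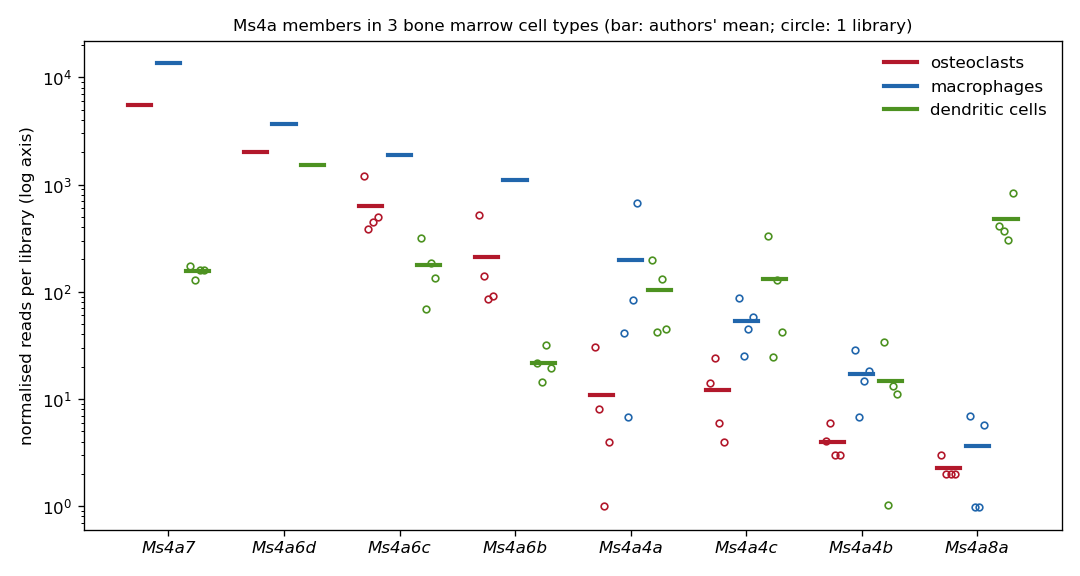
Level of each member in osteoclasts (red), macrophages (blue) and dendritic cells (green), in normalised reads on a log axis. Bars are the authors' means over 4 libraries and circles single libraries, drawn where whole reads could be recovered; Ms4a7 runs from 154.6 in dendritic cells to 13481.8 in macrophages, and Ms4a8a stays at a few reads outside dendritic cells.

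Against macrophages, osteoclasts had less RNA of 7 of the 8 members and more of none, at the authors' adjusted p under 0.05. Over all 17822 genes with an adjusted p, 14.7% were called lower and 14.5% higher in osteoclasts. The members' median log2 fold change was -1.69, beside -0.03 over all genes tested. Against dendritic cells, osteoclasts had more RNA of 3 members and less of 4, where 16.8% of 21217 genes were higher and 20.1% lower, with a member median of -0.62 beside -0.05. Dendritic cells had more RNA of 1 member and less of 4 than macrophages, where 20.3% of 20730 genes were higher and 16.4% lower, with a member median of -1.01 beside 0.05. The 3 comparisons share libraries, so their counts are not independent of each other.

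**Figure D2:**
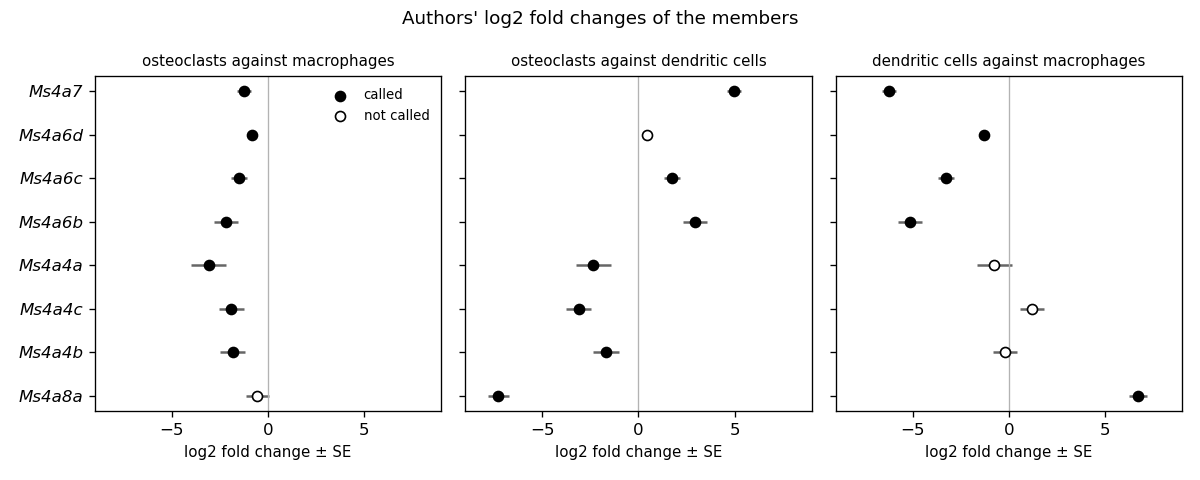
Authors' log2 fold change of each member in the 3 comparisons, first cell type over second, with the SE implied by the deposited p. Filled points were called at adjusted p under 0.05 and open points were not; 7 of 8 members lie left of 0 and are called in osteoclasts against macrophages, and Ms4a7 and Ms4a8a lie farthest from 0 in both comparisons with dendritic cells.

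Ms4a7, the macrophage marker of the family, was the most abundant member in macrophages. The authors' deposited table gave it 13481.8 normalised reads in macrophages, 5482.5 in osteoclasts and 154.6 in dendritic cells, and in macrophages it ranked 213 of 22901 genes above 0. The 4 dendritic cell libraries were close together, at 172.3, 129.6, 157.8 and 158.7 (SD 17.9, n = 4), and the libraries of the other cell types were too high to recover. Osteoclasts were lower than macrophages by a log2 fold change of -1.26 ± 0.37 (SE, DESeq2 adjusted p = 0.00369, the authors' deposited table). They were higher than dendritic cells by 4.98 ± 0.37 (adjusted p = 6.02e-39 from DESeq2 in the authors' deposited table), a 31.6-fold difference. For dendritic cells against macrophages the same deposited DESeq2 fit gave -6.24 ± 0.37 (adjusted p = 7.32e-61), a 75.7-fold difference. Each cell type differed from the others in Ms4a7, in the order macrophages, osteoclasts, dendritic cells.

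Ms4a6d was the most evenly spread member. Its means in the authors' deposited table were 3698.5 normalised reads in macrophages, 2019.0 in osteoclasts and 1506.1 in dendritic cells, all too high for single libraries to be recovered. Macrophages exceeded both other cell types, with -0.86 ± 0.23 for osteoclasts (adjusted p = 9.66e-04) and -1.28 ± 0.23 for dendritic cells (adjusted p = 1.18e-07) against macrophages, on the log2 scale of the deposited DESeq2 fit. Osteoclasts and dendritic cells, neighbours in the order, differed by 0.42 ± 0.23 with an adjusted p of 0.143 from DESeq2 in the authors' deposited table. The 95% interval of that difference ran from -0.03 to 0.87. With equal totals per cell type it became 0.61 with an adjusted p of 0.0192, so this pair is called under that scaling and not under the authors' own.

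Ms4a6c had means of 1892.8 normalised reads in macrophages, 632.3 in osteoclasts and 177.5 in dendritic cells, per the authors' deposited table. Its osteoclast libraries a to d held 1197.1, 384.5, 449.1 and 498.6 normalised reads (SD 379.4), and its dendritic cell libraries 320.0, 69.4, 185.3 and 135.3 (SD 106.2, n = 4 each). Library a was the highest in both cell types, but every osteoclast library was above every dendritic cell library. Without library a the means were 444.1 in osteoclasts and 130.0 in dendritic cells. The deposited DESeq2 fit gave log2 fold changes of -1.52 ± 0.41 for osteoclasts against macrophages (adjusted p = 0.00152) and -3.28 ± 0.42 for dendritic cells against macrophages (adjusted p = 3.86e-14). Osteoclasts exceeded dendritic cells by 1.76 ± 0.42 (adjusted p = 1.21e-04, DESeq2, the authors' deposited table), and the exact two-sided permutation test over the 8 recovered libraries gave p = 0.0286, the smallest that 4 against 4 allow.

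A transcript on the opposite strand, BE692007, overlaps 93.8% of Ms4a6c and was named after its values were seen. The authors' deposited table gave BE692007 1890.4 normalised reads in macrophages, 587.8 in osteoclasts and 160.4 in dendritic cells, which is 99.9%, 93.0% and 90.4% of the Ms4a6c values. Its osteoclast libraries held 1179.9, 371.5, 386.5 and 413.2 normalised reads, between 82.9% and 98.6% of Ms4a6c in the same library. Of the 1792 stretches of 50 bases in Ms4a6c transcripts, 55.41% also occur on the opposite strand of other transcripts, chiefly BE692007. The library kit keeps strand, but how strand was treated in counting is not given in the sources, so reads of Ms4a6c and BE692007 cannot be told apart and both levels are uncertain.

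Ms4a6b showed the same order with wider gaps. Its means in the authors' deposited table were 1101.0 normalised reads in macrophages, 210.0 in osteoclasts and 21.7 in dendritic cells. Osteoclast libraries a to d held 522.0, 141.2, 86.4 and 90.4 normalised reads (SD 209.5), and dendritic cell libraries 21.5, 14.3, 31.6 and 19.3 (SD 7.25, n = 4 each). Osteoclast library a was the highest of the 4, and no osteoclast library fell into the dendritic cell range. Log2 fold changes in the authors' deposited table were -2.20 ± 0.61 for osteoclasts against macrophages (DESeq2 adjusted p = 0.00206) and -5.13 ± 0.62 for dendritic cells against macrophages (adjusted p = 2.05e-15). For osteoclasts against dendritic cells the table gave 2.94 ± 0.62 (DESeq2 adjusted p = 1.38e-05), and the exact two-sided permutation p was 0.0286. Without library a the osteoclast mean was 106.0 normalised reads, still above the highest dendritic cell library, and the log2 ratio of means went from -2.39 to -3.38 against macrophages and from 3.28 to 2.29 against dendritic cells.

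Markers of other cells were summed in the same libraries, and osteoclast library a was the highest for 4 of 9 marker lists. The 2 macrophage markers with recoverable reads, of 8 listed, summed to 262.0 normalised reads in osteoclast library a and to 185.2, 72.5 and 65.6 in libraries b to d. The 6 recoverable dendritic cell markers of 8 summed to 1667.6 there and to between 603.8 and 804.6 in the other 3 libraries. The T cell list also peaked there, at 1074.1 against 562.2 to 686.5, but Cd28 made up 636.5 of its osteoclast mean of 738.7 and was higher still in macrophages, at 2500.0 in the authors' deposited table, while Cd3e and Cd3g were at 0 in osteoclasts. B cell markers were also highest in library a, but came to at most 9.07 in any osteoclast library (9.01 in b). Calcr, the 1 recoverable osteoclast marker of 8, was lowest in library a, at 568.3 against 1291.6 in b. Library a was not the highest for monocyte (86.7 against 92.1 in b), neutrophil (73.6 against 106.3 in c), mast cell and basophil (8.06 against 17.0 in b) or NK cell markers (6.05 against 20.9 in c). The part of other cells in the Ms4a6 values was not tested.

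The Ms4a4 genes were lowest in osteoclasts and did not follow the macrophage order of Ms4a7 and the Ms4a6 genes. Ms4a4a, whose protein has been reported to associate with the fungal receptor dectin-1 in macrophages, had 199.3 normalised reads in macrophages, 103.5 in dendritic cells and 10.8 in osteoclasts in the authors' deposited table. The macrophage libraries a to d held 41.3, 6.82, 83.8 and 665.3 normalised reads (SD 312.3), so that library d supplied most of the mean. Dendritic cell libraries held 195.9, 41.9, 131.3 and 44.8 (SD 74.3), and osteoclast libraries 30.2, 8.01, 0.994 and 3.97 (SD 13.3, n = 4 each). Every dendritic cell library was above every osteoclast library, while macrophages overlapped both.

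For Ms4a4a, osteoclasts were called lower than dendritic cells in the authors' deposited table, with a log2 fold change of -2.34 ± 0.92 (DESeq2 adjusted p = 0.0326). The exact permutation p of this pair was 0.0286, and limma on the recovered reads gave -3.70 ± 1.04 (adjusted p = 0.0145). Osteoclasts against macrophages gave -3.09 ± 0.92 in the authors' deposited table (DESeq2 adjusted p = 0.00456), but the libraries overlapped, the exact permutation p was 0.0857 and limma gave -3.32 ± 1.04 (adjusted p = 0.0516). The log2 ratio of means for this pair, -4.21, became -5.53 without osteoclast library a and -2.02 without macrophage library d. Against dendritic cells it went from -3.26 to -4.58 without osteoclast library a. Dendritic cells and macrophages differed by -0.75 ± 0.92 (adjusted p = 0.591, DESeq2, the authors' deposited table), with a 95% interval from -2.55 to 1.05, and limma, which averages log values, gave 0.38 ± 1.04 (adjusted p = 0.873). Without macrophage library d the macrophage mean was 44.0 normalised reads and the log2 ratio of dendritic cells to macrophages turned to 1.24, so the order of these 2 cell types rests on that library. In the same library d, Tmem176a, a relative of the family, held 1069.8 normalised reads against 152.3 to 193.9 in the other 3 macrophage libraries, and the 6 recoverable dendritic cell markers summed to 2810.2 and 1755.2 in libraries b and d against 295.8 and 382.7 in a and c. Macrophage library d was the highest for 0 of the 9 marker lists. The part of these in the Ms4a4a value was not tested.

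Ms4a4c had its highest mean in dendritic cells, 132.2 normalised reads beside 53.5 in macrophages and 12.0 in osteoclasts in the authors' deposited table. Its libraries a to d in dendritic cells were spread widely, at 333.3, 24.5, 129.3 and 41.7 (SD 141.7, n = 4). Macrophage libraries held 86.5, 25.3, 44.8 and 57.5 (SD 25.6) and osteoclast libraries 14.1, 24.0, 5.96 and 3.97 (SD 9.13, n = 4 each). No osteoclast library reached any library of the other cell types, and dendritic cells and macrophages overlapped. Osteoclasts were lower than dendritic cells by -3.11 ± 0.64 (DESeq2 adjusted p = 6.81e-06, the authors' deposited table; limma adjusted p = 0.00249) and lower than macrophages by -1.92 ± 0.64 (adjusted p = 0.0124; limma adjusted p = 0.0361), both on the log2 scale. The exact permutation p was 0.0286 in both pairs. Dendritic cells and macrophages differed by 1.19 ± 0.62 (DESeq2 adjusted p = 0.128, the authors' deposited table), with a 95% interval from -0.03 to 2.41. Without dendritic cell library a the dendritic cell mean was 65.2, and the log2 ratio of means went from 1.30 to 0.28 for dendritic cells against macrophages and from -3.46 to -2.44 for osteoclasts against dendritic cells.

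Ms4a4b, first studied in T cells, where its protein has been reported to associate with the receptor GITR, was low throughout. Its means in the authors' deposited table were 17.0 normalised reads in macrophages, 14.8 in dendritic cells and 4.00 in osteoclasts. Osteoclast libraries held 4.03, 6.01, 2.98 and 2.98 normalised reads, macrophage libraries 28.5, 6.82, 14.6 and 18.2, and dendritic cell libraries 33.8, 1.02, 13.2 and 11.2 (n = 4 each). Macrophages did not overlap osteoclasts, but dendritic cell library b was below all 4 osteoclast libraries. Both deposited DESeq2 calls were lost in limma on the recovered reads. Osteoclasts against macrophages gave -1.85 ± 0.67 (adjusted p = 0.0222, the authors' deposited table) with a limma adjusted p of 0.137 and an exact permutation p of 0.0286. Osteoclasts against dendritic cells gave -1.67 ± 0.67 (DESeq2 adjusted p = 0.0361, the authors' deposited table) with a limma adjusted p of 0.330, an exact permutation p of 0.314 and, with equal totals per cell type, an adjusted p of 0.0647. Without dendritic cell library b the limma log2 fold change was -2.02 (adjusted p = 0.0205), and without dendritic cell library a the log2 ratio of means went from -1.89 to -1.08. Dendritic cells and macrophages differed by -0.18 ± 0.63 (DESeq2 adjusted p = 0.868, the authors' deposited table), with a 95% interval from -1.41 to 1.05.

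Dendritic cell library a was the highest of the 4 for 5 of the 7 members recovered in that cell type. The library lettered a also led for 4 of 6 recovered members in osteoclasts and 3 of 4 in macrophages. The share of all genes for which it leads is not given here. Dendritic cell library a was also the highest for 4 of the 9 marker lists, but the dendritic cell and monocyte lists had only 1 recoverable gene each. The monocyte value was 68.7 normalised reads in library a against 68.2 in d, and the B cell markers summed to 21.5 in library a. The 7 mast cell and basophil markers summed to 1093.3 normalised reads in library a against 608.4 to 736.7 in the others. They came to at most 17.0 in any osteoclast or macrophage library. By their dendritic cell means, Cpa3, Gata2 and Hdc (348.4, 230.6 and 169.2) made up most of the sum. The part of these cells in the Ms4a values was not tested.

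**Figure D3:**
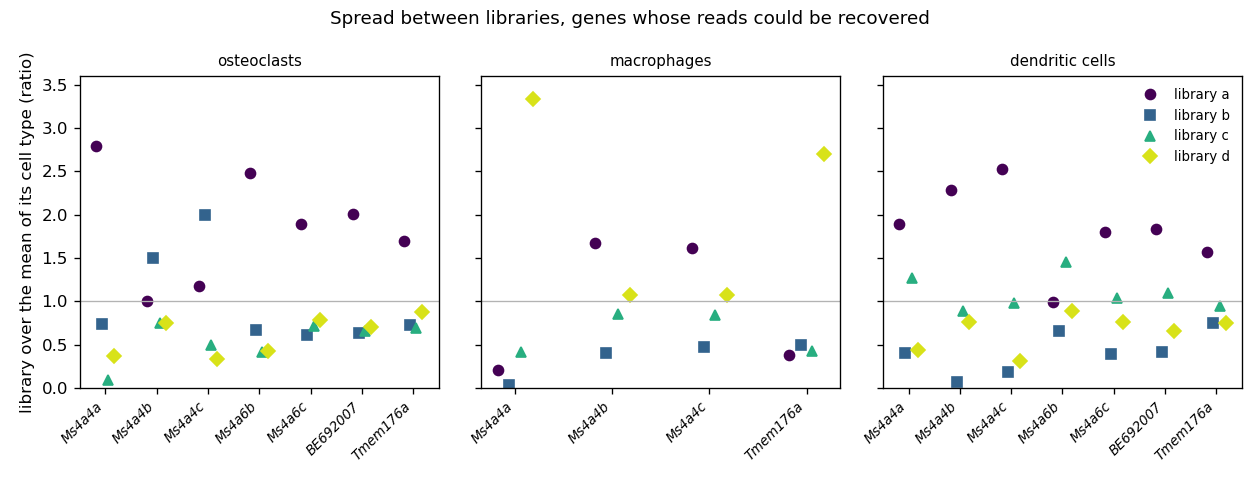
Each library divided by the mean of its cell type (ratio, linear axis) for members and 2 other genes whose reads could be recovered, with libraries a to d as circles, squares, triangles and diamonds. Osteoclast library a stands above the other 3 for Ms4a4a, Ms4a6b, Ms4a6c, BE692007 and Tmem176a, and macrophage library d for Ms4a4a and Tmem176a.

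Ms4a8a was the 1 member called higher in dendritic cells than in both other cell types. Its libraries a to d held 412.3, 367.5, 303.3 and 829.3 normalised reads in dendritic cells (SD 238.3), 3.02, 2.00, 1.99 and 1.99 in osteoclasts and 6.88, 0.974, 0.974 and 5.75 in macrophages (n = 4 each). The lowest dendritic cell library was far above the highest of the other 8. Mean levels in the authors' deposited table were 478.1, 2.25 and 3.64 normalised reads. Osteoclasts were lower than dendritic cells by a log2 fold change of -7.28 ± 0.53 (DESeq2 adjusted p = 1.51e-41, the authors' deposited table; limma adjusted p = 1.21e-08). Dendritic cells were higher than macrophages by 6.72 ± 0.48 (DESeq2 adjusted p = 1.18e-42, the authors' deposited table; limma adjusted p = 1.58e-08). Osteoclasts and macrophages, both at a few reads, differed by -0.56 ± 0.61 (DESeq2 adjusted p = 0.550, the authors' deposited table), with a 95% interval from -1.76 to 0.64. Neutrophil marker means summed to 14385.6 normalised reads for dendritic cells, 77.4 for osteoclasts and 92.0 for macrophages. Of the 7 markers, 6 were called higher in dendritic cells than in macrophages, and Mpo was not (3.06 against 6.59). The 3 recoverable ones were Camp, Elane and Mpo, with dendritic cell means of 220.9, 6.89 and 3.06, so their sum was mostly Camp. That sum came to 234.9, 245.0, 77.4 and 366.3 in dendritic cell libraries a to d. In that sum library d was highest and c lowest, as for Ms4a8a, while a and b had the opposite order. The part of neutrophils in the Ms4a8a value was not tested.

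The limma test covered 20116 genes with reads recovered in all 3 cell types, and 4 members, Ms4a4a, Ms4a4b, Ms4a4c and Ms4a8a. It called 1 of the 4 (Ms4a4c) in osteoclasts against macrophages, where 10.2% of all genes were called in either direction. It called 3 of the 4, all but Ms4a4b, in osteoclasts against dendritic cells, where 22.2% were called, and 1 (Ms4a8a) in dendritic cells against macrophages, where 20.1% were called. With any 1 osteoclast or macrophage library left out, the Ms4a4c call against macrophages was lost, with limma adjusted p from 0.081 to 0.244. Without macrophage library b Ms4a4a was called instead (limma adjusted p = 0.0446). Against dendritic cells Ms4a4a lost its limma call without any 1 of the dendritic cell libraries or of osteoclast libraries b, c and d (limma adjusted p from 0.0737 to 0.156). Ms4a4c lost its call there without osteoclast library d (limma adjusted p = 0.05) or dendritic cell library c (limma adjusted p = 0.0535).

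Levels of different genes can be compared only per length of transcript. Per kb of the longest annotated transcript, the authors' means in macrophages ran from 3737.7 for Ms4a7 through 2608.3 for Ms4a6d, 1028.1 for Ms4a6c, 256.9 for Ms4a6b and 238.4 for Ms4a4a to 31.1 for Ms4a4c, 3.59 for Ms4a4b and 3.10 for Ms4a8a. In osteoclasts Ms4a7 (1520.0 per kb) and Ms4a6d (1423.8) led, and Ms4a6c followed at 343.5. In dendritic cells Ms4a6d led with 1062.1 per kb, ahead of Ms4a8a at 406.5, Ms4a4a at 123.8, Ms4a6c at 96.4, Ms4a4c at 76.7 and Ms4a7 at 42.9. With merged exons as the length the order changed in macrophages only, where Ms4a8a passed Ms4a4b. Some reads may be shared between copies: 8.48% of the 50-base stretches of Ms4a4c, 11.33% of Ms4a6c and 4.19% of Ms4a4b occur on the same strand of other transcripts, and none of Ms4a4a or Ms4a8a.

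Ms4a8a, before Ms4a7, and Ms4a2 and Ms4a3, beyond Ms4a6d, were called higher in dendritic cells than in macrophages. Ms4a4c, between Ms4a7 and Ms4a6c, had its highest mean in dendritic cells but was not called against macrophages. Ms4a14, 6.6 kb from Ms4a7, had 1409.3 normalised reads in macrophages, 388.5 in osteoclasts and 8.67 in dendritic cells, per the authors' deposited table. Its osteoclast libraries held 531.0, 242.3, 446.1 and 334.7 and its dendritic cell libraries 8.21, 9.19, 12.2 and 5.09 normalised reads, with no overlap. The deposited DESeq2 log2 fold changes of Ms4a14 were -1.82 ± 0.33 for osteoclasts against macrophages (adjusted p = 6.02e-07), 5.25 ± 0.39 for osteoclasts against dendritic cells (adjusted p = 7.94e-39) and -7.07 ± 0.39 for dendritic cells against macrophages (adjusted p = 2.6e-70). Beside Ms4a8a, at a distance of 11.7 kb, the transcript AW112010, named here after its values were seen, averaged 1647.7 normalised reads in dendritic cells per the authors' deposited table, beside 160.4 in macrophages and 15.8 in osteoclasts. Of 16 other genes annotated in the cluster, 5 were tested in osteoclasts against macrophages. The authors' deposited table had 4 of them lower and 0 higher in osteoclasts, beside 14.7% and 14.5% of all genes tested. It had 1 lower and 1 higher of 8 in osteoclasts against dendritic cells, beside 20.1% and 16.8%. In dendritic cells against macrophages it had 4 lower and 1 higher of 7, beside 16.4% and 20.3%. BE692007, whose reads cannot be told apart from those of Ms4a6c, was among the genes called in each comparison.

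**Figure D4:**
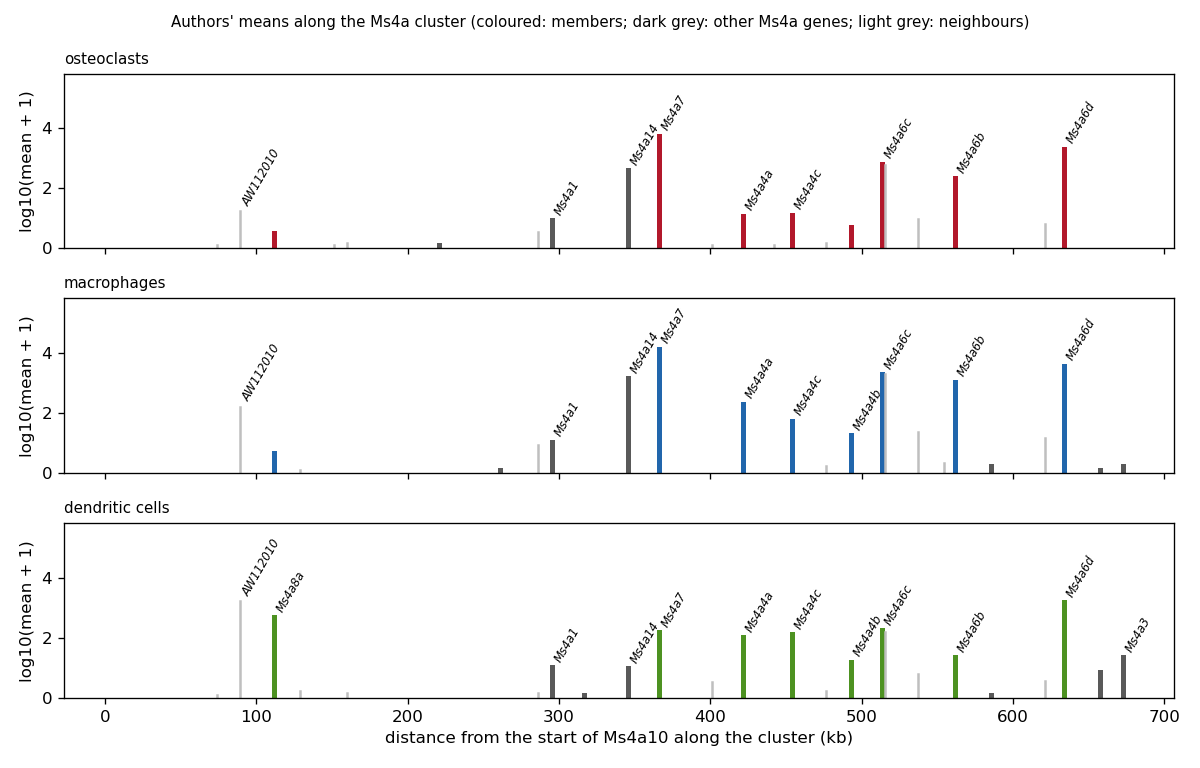
Authors' mean of each gene, as log10(mean + 1), against its distance in kb from the first gene of the cluster, in 1 panel per cell type. Coloured lines are the 8 members, dark grey lines other Ms4a genes and light grey lines neighbouring genes; Ms4a8a and AW112010 are tall at the left in dendritic cells, and Ms4a14 and Ms4a7 near the middle in macrophages and osteoclasts.

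Of the 11 other Ms4a genes, 4 were tested. Besides Ms4a14 these were Ms4a1, Ms4a2 and Ms4a3. The CD20 gene Ms4a1, also named after its values were seen, averaged 7.49 to 9.97 normalised reads in the authors' deposited table and was called in none of the 3 comparisons. Ms4a3, known from granulocyte and monocyte progenitors, held 26.7, 22.5, 21.4 and 15.3 normalised reads in the dendritic cell libraries, 3 reads in all macrophage libraries together and 0 in osteoclasts. Against a floor of 3 reads over the group, its dendritic cell mean was at least 28.6-fold higher than that of osteoclasts (adjusted p = 4.11e-09, DESeq2, the authors' deposited table). Ms4a2, chosen after its values were seen, averaged 6.38 normalised reads in dendritic cells and 0 in osteoclasts in the authors' deposited table, at least 8.51-fold higher. In the dendritic cells the 7 mast cell and basophil markers summed to 783.7, the 7 neutrophil markers to 14385.6 and the 5 monocyte markers to 22952.2 normalised reads. Few genes made up most of the first and last sums. Cpa3, Gata2 and Hdc had 348.4, 230.6 and 169.2, while Fcer1a, Tpsb2 and Cma1 had 2.81 to 4.85. Ccr2 alone had 19323.7. Of the 5 monocyte markers, 4 were called higher in dendritic cells than in macrophages, and F13a1 was not (1098.0 against 1971.7). The part of these cells in Ms4a2 and Ms4a3 was not tested. Ms4a4d, Ms4a5, Ms4a12 and Ms4a13 had at most 3 reads in any cell type, and Ms4a10, Ms4a15 and Ms4a18 were at 0. The relative Tmem176b, with 2069.4, 1494.0 and 1461.7 normalised reads in osteoclasts, macrophages and dendritic cells, was called in none of the comparisons of the authors' deposited table, and Tmem176a had no p there.

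Of 11 genes reported as partners of MS4A proteins, the authors' deposited table had 0 higher and 3 lower of 10 tested in osteoclasts against macrophages, with a median log2 fold change of -0.17. It had 3 higher and 6 lower of 11 against dendritic cells (median -0.51), and 5 higher and 5 lower of 11 in dendritic cells against macrophages (median 0.47). Over all genes tested, 14.5% were higher and 14.7% lower in osteoclasts against macrophages, and 16.8% and 20.1% in osteoclasts against dendritic cells. In dendritic cells against macrophages the shares were 20.3% higher and 16.4% lower. Fcer1g, the common Fc receptor gamma chain, was called lower in osteoclasts (16229.6 normalised reads) than in macrophages (26406.6) by -0.70 ± 0.11 (DESeq2 adjusted p = 9.21e-10, the authors' deposited table). Clec7a, which encodes dectin-1, was highest in dendritic cells, with 32916.3 normalised reads against 2827.2 in macrophages and 2223.3 in osteoclasts in the authors' deposited table. Tyrobp, the adaptor of TREM2, had 25790.2, 26755.6 and 18905.4 normalised reads in osteoclasts, macrophages and dendritic cells in the authors' deposited table, and was called lower in dendritic cells than in both. Trem2, named for the human link above and after its values were seen, had 12125.1, 20847.6 and 5168.8 normalised reads in the authors' deposited table. All 3 of its log2 fold changes were called there, with -0.78 ± 0.15 for osteoclasts against macrophages (DESeq2 adjusted p = 5.19e-06), 1.22 ± 0.15 for osteoclasts against dendritic cells and -2.0 ± 0.15 for dendritic cells against macrophages. Of 25 interferon-stimulated genes, 18 were lower and 1 higher in osteoclasts than in macrophages in the authors' deposited table, with a median log2 fold change of -1.08. Against dendritic cells 11 were lower and 3 higher in osteoclasts (median -0.65), and dendritic cells had 8 lower and 3 higher than macrophages (median -0.33), in the authors' deposited table. These counts stand beside the same shares of all genes as those of the partners above.

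The genes whose means over the 3 cell types were most like those of each member were found by the distance between centred log2 profiles over 10647 genes. With 3 points per gene this is a description. For Ms4a6b the nearest gene was Maf, a macrophage transcription factor, at a distance of 0.103, with 12236.0 normalised reads in macrophages, 2581.5 in osteoclasts and 269.9 in dendritic cells, per the authors' deposited table. Thsd1 followed. Ms4a7 lay nearest to Ephb6 and Pcp4l1, Ms4a4a to Ggt5 and Tpbgl, and Ms4a4c to Prr33 and Rab19. Ms4a8a lay nearest to Retnlg and H2-Aa, the latter an MHC class II gene of antigen-presenting cells, and Ms4a6c to Gpr162 and BE692007. Ms4a6d lay nearest to Gdpd1 and the nucleotide receptor gene P2ry6, and had 656 genes within a distance of 0.5, against 4 to 30 for the other members compared.

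The labels of the cell types were checked against marker lists in the authors' deposited table. All 8 osteoclast markers and 0 of 8 macrophage markers were higher in osteoclasts than in macrophages, all 8 macrophage markers were lower, and all 8 dendritic cell markers were higher in dendritic cells than in either other type. Osteoclast markers were also called higher in dendritic cells than in macrophages for 6 of 8. Set against dendritic cells, osteoclasts had a call for more RNA of only 5 of the 8 osteoclast markers. Dcstamp, Ocstamp and Atp6v0d2 were not called. Their dendritic cell means of 7666.4, 2582.6 and 20465.5 normalised reads exceeded the osteoclast means of 4231.1, 1589.4 and 17755.5. Of the 8 macrophage markers, that pair had 1 called with more RNA for osteoclasts and 3 with less. Summed means were 2.42e+07, 2.50e+07 and 2.77e+07 normalised reads in osteoclasts, macrophages and dendritic cells. Making these totals equal moves every log2 fold change by 0.046, 0.194 and 0.148 in size in the 3 comparisons. Genes called higher and lower in osteoclasts against dendritic cells then go from 3554 and 4275 to 5323 and 3342, and those in dendritic cells against macrophages from 4212 and 3396 to 3459 and 4625. Apart from Ms4a6d and Ms4a4b, whose values are given above, no member's call changed under this scaling.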

How the data were processed

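The deposited data are pairwise comparisons of 46072 genes made by the authors. Per the file headers each pair of cell types has 2 means, a log2 fold change, and a p-value both raw and adjusted. The means are a signal in which the authors divided read counts by size factors and averaged 4 libraries, which follows from the values. DESeq2 2.13, Cufflinks 2.1.1, TopHat2, Bowtie2 and bcl2fastq are named with GRCm38 in the submitters' processing notes. Which annotation was counted, and whether by strand, is not given in the sources. Libraries were read as 50-base single reads in 1 lane, per the series' design text.

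The planned count tests did not apply, since the table has no column per library, and the authors' adjusted p under 0.05 was used. The SE beside a deposited fold change was derived from it and its p as in a Wald test, which is an assumption, and the 95% intervals rest on it. Deposited fold changes of low genes lie closer to 0 than the ratio of means.

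Reads per library were recovered by searching for 4 whole numbers whose weighted sum gave the mean to the 15 digits printed, for low means. In the range searched, 17311 of 17311 osteoclast, 17841 of 17966 macrophage and 18265 of 18268 dendritic cell means had 1 solution. On simulated means 972 of 972, 967 of 984 and 977 of 979 were recovered and 0 were wrong. Libraries of a cell type differed beyond sampling noise in all 18 pairs (median chi-square per gene 1.40 to 3.73, against 0.455). The recovered reads were tested with limma 3.58.1 with a trend, on log2(normalised reads + 0.5). On data simulated for osteoclasts against macrophages over 20116 genes, limma recovered 136 of 200 genes changed 4-fold, with 10 false calls. The total reads of each library are not known, and values of a few reads carry a large counting error.

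GENCODE M21 on GRCm38 gave coordinates, and symbols for all but 934 of the identifiers. The members and lists were chosen with earlier results of these data known. Named genes are the members, other Ms4a genes with at least 10 normalised reads in some cell type, up to 3 genes of a list with the highest means, and the 2 genes nearest to each member that reaches a mean of 100.0, among genes that do so. Alternatives were 2 scalings, a threshold of 0.01, a 2-fold minimum, pseudocounts of 0.1 and 1, and leaving out each library.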

Additional observations from a re-analysis of the deposited data

Results flagged for a closer look

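Over the members, the other Ms4a genes, Tmem176a and 10 neighbouring transcripts with recovered reads, 33 groups of 4 libraries had at least 10 reads, and 5 of them held a library far from the other 3, by the gap to the nearest library over the whole range of the group, set against Dixon's critical value for 4 values. Chance flags about 1 in 20 such groups. Osteoclast library a was far above the others for Ms4a6b, with a gap of 0.874 of the range, for Ms4a6c, with 0.860, and for BE692007, which overlaps Ms4a6c, with 0.948. Macrophage library d was far above the others for Ms4a4a, with 0.883, and for Tmem176a, with 0.955.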

How the results depend on the processing

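Leaving out 1 library gave 0 to 1 members called by limma in osteoclasts against macrophages and 1 to 3 in osteoclasts against dendritic cells. At an adjusted p under 0.01, the count of members lower in osteoclasts than dendritic cells went from 4 to 2. The count lower in osteoclasts than macrophages went from 7 to 5 at that threshold, and to 6 with a 2-fold minimum. Of the alternative counts of called members, 53 stayed within 1.5 times and 10 did not. Signs turned only in pairs that were not called. With 1 library left out, the limma log2 fold change of Ms4a8a in osteoclasts against macrophages ran from -0.59 to 0.19, and was above 0 without macrophage library a or d (0.11). In dendritic cells against macrophages, the log2 ratio of means ran from -1.46 to 1.24 for Ms4a4a, above 0 only without macrophage library d, and from -1.01 to 0.19 for Ms4a4b, above 0 without dendritic cell library b or macrophage library a (0.17). The limma fold change there ran from -0.66 to 1.51 for Ms4a4a, below 0 without macrophage library b or dendritic cell library a (-0.03), and from -1.32 to 0.17 for Ms4a4b, above 0 only without dendritic cell library b. The ratios of means without a library and a limma run on genes with at least 10 reads were chosen after seeing the data. Ms4a6b, Ms4a6c, Ms4a6d and Ms4a7 were outside the limma test, so their deposited calls could not be refitted without single libraries. No paired analysis was possible because the table's columns carry no replicate numbers and the recovered libraries cannot be tied to a mouse. Values of a few reads, as for Ms4a4b, are limited by depth.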
